A study of Homo sapiens with 6 samples.

Results

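The Ikaros family of transcription factors comprises 5 genes, IKZF1 (Ikaros), IKZF2 (Helios), IKZF3 (Aiolos), IKZF4 (Eos) and IKZF5 (Pegasus), and their transcripts were compared between a prednisolone-resistant leukaemia line and its parent. The members were taken by gene symbol from the deposited expression table, and all 5 were found among its 25838 genes. All 5 also passed the filter on low counts and so belonged to the 14869 genes tested. Sup-B15 is a line of childhood B-cell precursor acute lymphoblastic leukaemia (cALL) that responds to prednisolone, a glucocorticoid. Sup-PR is a prednisolone-resistant line derived from it as a sub-clone. RNA from 3 libraries of Sup-PR and 3 of Sup-B15 was sequenced. Both lines were grown in IMDM with fetal bovine serum and penicillin/streptomycin, neither was treated, and Sup-B15 is labelled as the parental line. As there was 1 sub-clone and 1 parent, resistance and any other difference between these lines cannot be told apart. Nothing in the sources used here says that the libraries came from separate cultures, so p-values measure the spread between libraries, which may be technical.

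Ikaros family proteins are zinc finger transcription factors that govern lymphocyte development. Zinc fingers near the N-terminus bind DNA, those at the C-terminus join family members into dimers, and the bound proteins recruit chromatin-remodelling and corepressor complexes. IKZF1 is a tumour suppressor that is often deleted in B-cell precursor leukaemia, IKZF3 acts at later stages of B-cell development, IKZF2 and IKZF4 are best known from regulatory T cells, and IKZF5 is the most divergent member. Thalidomide-type drugs bring the second zinc finger of IKZF1 and IKZF3 to the ubiquitin ligase receptor cereblon, after which these proteins are degraded.

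The coding sequence of that finger is shown because it carries both likeness and divergence between the members. Each line gives the bases 5′ to 3′ on the coding strand, and capitals mark bases that differ from IKZF1.
IKZF1: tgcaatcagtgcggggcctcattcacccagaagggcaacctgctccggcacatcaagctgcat
IKZF2: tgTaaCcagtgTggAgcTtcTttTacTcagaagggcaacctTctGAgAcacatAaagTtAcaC
IKZF3: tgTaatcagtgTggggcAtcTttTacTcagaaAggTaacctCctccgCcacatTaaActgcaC
IKZF4: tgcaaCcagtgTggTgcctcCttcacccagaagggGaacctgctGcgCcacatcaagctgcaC
IKZF5: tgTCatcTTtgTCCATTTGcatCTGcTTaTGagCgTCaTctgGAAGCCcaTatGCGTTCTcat
They were read from GENCODE 29 transcripts on GRCh38, at chr7:50382557-50382619 (plus strand) for IKZF1, chr2:213049801-213049863 (minus) for IKZF2, chr17:39791504-39791566 (minus) for IKZF3, chr12:56027797-56027859 (plus) for IKZF4 and chr10:122994644-122994706 (minus) for IKZF5. The fingers of IKZF1, IKZF2, IKZF3 and IKZF4 encode the same 21 residues, yet of 63 bases only 47 of IKZF2, 50 of IKZF3 and 55 of IKZF4 are the same as in IKZF1. The IKZF5 stretch has most bases in common among its fingers of 63 bases, 26 of 63, and encodes 5 of the 21 residues. Fingers of other lengths were not compared. The in-frame stretch of this length in the IKZF5 coding sequence with most bases in common reached 28 of 63, so the finger was not the closest stretch. The longest coding sequences encode 519 residues with 5 fingers of the C2H2 pattern for IKZF1, 532 with 5 for IKZF2, 509 with 4 for IKZF3, 585 with 5 for IKZF4 and 419 with 4 for IKZF5. The pattern was C, 2 residues, C, 12 residues, H, 3 or 4 residues, H, and fingers of other spacing were not counted. No 50-base word of an annotated transcript was shared between any 2 members, and the longest shared run was 33 bases, between IKZF1 and IKZF3. With genes outside the family, 2.01% of the words of IKZF3, 0.413% of IKZF1 and 0.743% of IKZF5 were shared, on either strand. For IKZF2 and IKZF4 the share was 0. Whether such stretches added to the counts was not tested.

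The libraries held 20112543 to 23608056 counts in Sup-PR and 16966569 to 26603422 in Sup-B15, and no library stood apart from its line. Counts of a pair of libraries differed by a chi-square of 2.92 to 9.67 per gene within a line and of 52.97 to 80.22 between the lines. The B-cell precursor label was checked on 7 markers, all tested and all present in both lines. Of these, 0 were higher in Sup-PR, 6 (CD22, PAX5, EBF1, MME, CD24 and DNTT) were lower and CD79A did not pass. Their summed level was 4458 to 4884 CPM (counts scaled to a common library size by TMM) in Sup-PR and 6461 to 7085 CPM in Sup-B15. Of the T-cell markers, 2 of 6 were in the table: TRAC, at 12.1 CPM in Sup-PR and 49.8 CPM in Sup-B15, and CD5, with no count in 5 libraries. Of the natural killer cell markers, 2 of 4 were in the table: NKG7, at 23.1 CPM in Sup-PR and 55.1 CPM in Sup-B15, and NCAM1, below the filter. The 2 of 5 myeloid markers that were tested (MPO and CSF1R) summed to 4.39 to 6.98 CPM in Sup-PR and 6.18 to 10.1 CPM in Sup-B15. FOXP3, the defining gene of regulatory T cells, had 5 to 9 counts per Sup-PR library and 4 to 20 per Sup-B15 library. CD3D, CD3E, CD3G, CD2, CTLA4, IL2RA, LYZ, GNLY and KLRD1 were not in the table used here, so their levels were not analysed. The part of these markers in the results on the Ikaros family was not tested.

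The family did not move as a block. IKZF5 rose in Sup-PR cells, IKZF2 and IKZF4 fell, and IKZF1 and IKZF3 did not pass the test. Each was tested with edgeR's quasi-likelihood test across all genes, with Benjamini-Hochberg adjustment over them, and a gene passed at an adjusted p under 0.05. At that threshold 28.0% of the genes tested passed as higher in Sup-PR and 27.4% as lower, so that passing was common. A gene was called when its fold change was also over 1.5, which held for 7.53% of genes in the higher and 15.4% in the lower direction. Of the 5 members, 0 were called higher and 1, IKZF2, was called lower. The libraries of the lines did not overlap for 3 members, 1 higher and 2 lower. Over all genes, 30.8% were higher without overlap and 30.3% were lower without overlap. These member counts are too small to set the family apart from that background. In these bulk RNA samples, fewer cells of a type and less RNA per cell cannot be told apart.

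IKZF1, the founding member and a regulator of B-cell precursor differentiation, lies at chr7:50304068-50405101 on the plus strand (GRCh38; ENSG00000185811). Its normalised level was 728, 685 and 677 CPM in the Sup-PR libraries, against 698, 694 and 677 CPM in the Sup-B15 libraries. The ranges of the 2 lines overlapped, with Sup-PR 1 above every Sup-B15 library. The level was 697 ± 27.3 CPM in Sup-PR and 690 ± 11.1 CPM in Sup-B15 (SD, n = 3 each). The log2 fold change of Sup-PR over Sup-B15 was 0.01 (SE 0.05, edgeR adjusted p = 0.827), and its sign turned under other scalings. The 95% interval of the fold change ran between 0.935 and 1.09. IKZF1 was an abundant transcript in both lines, with a level per length above 96.0% of the protein-coding genes in the table in Sup-PR and 96.4% in Sup-B15.

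IKZF2, or Helios, is known from T-cell and haematopoietic progenitor biology, and lies at chr2:212999691-213152427 on the minus strand (ENSG00000030419). It was the member with the clearest decrease. Its normalised level was 378, 352 and 375 CPM in Sup-PR, against 633, 610 and 564 CPM in Sup-B15. Every Sup-PR library was below every Sup-B15 library. The mean was 368 ± 14.1 CPM in Sup-PR and 602 ± 35.4 CPM in Sup-B15 (SD, n = 3 each). The log2 fold change was -0.71 (SE 0.06, 95% interval -0.83 to -0.59, edgeR adjusted p = 2.52e-07), which made Sup-B15 1.64-fold higher. The transcript was not scarce in the resistant line, where its level per length still exceeded 89.8% of protein-coding genes, against 94.98% in Sup-B15. A test against a fold change of 1.5 rather than against no change left IKZF2 just past the threshold (adjusted p = 0.0496).

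IKZF3, or Aiolos, a factor of later B-cell stages, lies at chr17:39757715-39864188 on the minus strand (ENSG00000161405). It was close to the limit of detection, with 13, 4 and 9 counts in the Sup-PR libraries and 22, 24 and 9 counts in the Sup-B15 libraries. The lines overlapped, as Sup-B15 3 held fewer counts than Sup-PR 1. At this depth the level was 0.410 ± 0.240 CPM in Sup-PR and 0.868 ± 0.393 CPM in Sup-B15 (SD, n = 3 each). The log2 fold change was -1.09 (SE 0.48, 95% interval -2.12 to -0.06, not adjusted over genes) and did not pass (edgeR adjusted p = 0.0686). It passed when no genes were filtered (0.0402), without Sup-PR 1 (0.0221) or without Sup-B15 3 (0.0263), so at this depth whether it passed rests on these choices. In level per length IKZF3 stood above 16.3% of protein-coding genes in Sup-PR and 17.2% in Sup-B15.

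IKZF4, or Eos, a corepressor partner in regulatory T cells, lies at chr12:56007659-56038435 on the plus strand (ENSG00000123411). Its libraries held 219, 268 and 248 counts in Sup-PR and 250, 356 and 247 counts in Sup-B15. Scaled by the authors to gene length and library depth (FPKM), these were 1.59, 1.71 and 1.64 in Sup-PR, against 2.08, 1.88 and 1.89 in Sup-B15. The lines did not overlap, though the gap was narrow. The mean was 11.3 ± 0.348 CPM in Sup-PR and 13.4 ± 0.789 CPM in Sup-B15 (SD, n = 3 each). The log2 fold change was -0.25 (SE 0.10, 95% interval -0.46 to -0.04, edgeR adjusted p = 0.0403), under the 1.5-fold threshold. IKZF4 no longer passed with DESeq2 (adjusted p = 0.0868), with no filter on low counts (0.0793) and when any library other than Sup-B15 3 was left out (0.0612 to 0.143), although the direction stayed the same.

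IKZF5, or Pegasus, a divergent member that has been linked to platelet formation in humans, lies at chr10:122990806-123008817 on the minus strand (ENSG00000095574). It was the only member of the 5 that rose. Its level was 35.1, 33.8 and 36.5 CPM in Sup-PR, against 23.4, 24.8 and 23.5 CPM in Sup-B15. Every Sup-PR library was above every Sup-B15 library. The mean was 35.2 ± 1.36 CPM in Sup-PR and 23.9 ± 0.784 CPM in Sup-B15 (SD, n = 3 each). The log2 fold change was 0.55 (SE 0.07, edgeR adjusted p = 1.68e-05), a fold change of 1.47 with a 95% interval from 1.32 to 1.63. It was not called, since the estimate lay just under 1.5, and in the test against a fold change of 1.5 the adjusted p was 1.

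**Figure D1:**
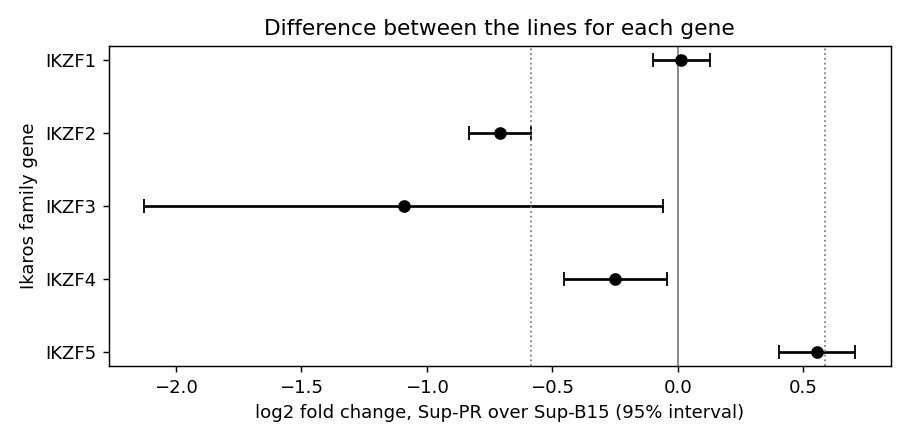
Log2 fold change of Sup-PR over Sup-B15 (horizontal axis) for each Ikaros family gene, with points for the edgeR estimates, bars for 95% intervals and dotted lines at a fold change of 1.5. The interval of IKZF2 lies wholly below 0 with the estimate at -0.71, and that of IKZF5 wholly above 0 with the estimate at 0.55. That of IKZF4 also lies below 0, from -0.46 to -0.04. The interval of IKZF3 is the widest, from -2.12 to -0.06. The intervals are not adjusted over the genes tested, and IKZF3 did not pass at its adjusted p.

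To set the members beside each other, the deposited FPKM (fragments scaled to gene length and to library depth) was used, which divides by gene length. The order was the same in both lines: IKZF1, IKZF2, IKZF5, IKZF4 and IKZF3. IKZF1 averaged 63.5 ± 1.79 FPKM in Sup-PR and 62.4 ± 1.08 FPKM in Sup-B15. IKZF2 averaged 30.0 ± 1.11 FPKM in Sup-PR and 48.7 ± 2.90 FPKM in Sup-B15. IKZF5 averaged 7.10 ± 0.317 FPKM in Sup-PR and 4.79 ± 0.167 FPKM in Sup-B15 (SD, n = 3 throughout). The 2 lowest members were IKZF4, at 1.65 FPKM in Sup-PR and 1.95 FPKM in Sup-B15, and IKZF3, at 0.0407 FPKM in Sup-PR and 0.0858 FPKM in Sup-B15. In neither line did the ranges of 2 neighbours in this order overlap. The distances between them differed between the lines: IKZF1 was 2.02 to 2.18 times IKZF2 within the Sup-PR libraries and 1.23 to 1.34 times IKZF2 within the Sup-B15 libraries. IKZF2 was 4.22 times IKZF5 in Sup-PR and 10.2 times IKZF5 in Sup-B15. The FPKM used 1 length per gene (4934 bases for IKZF5 to 12240 bases for IKZF2), whichever isoforms were made.

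**Figure D2:**
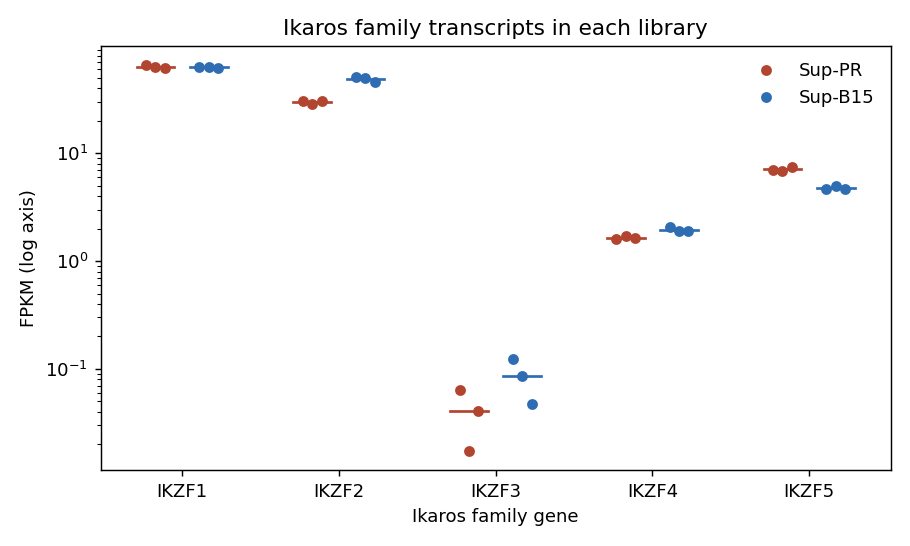
FPKM on a log axis for each Ikaros family gene, with 1 point per library, a horizontal bar at the mean of 3, Sup-PR in red and Sup-B15 in blue. The order of the genes is the same in both lines, IKZF2 and IKZF5 separate the lines in opposite directions, and the IKZF3 points spread most.

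As a share of the family's summed FPKM, IKZF1 made up 62.7%, 62.6% and 60.9% in Sup-PR, against 52.1%, 52.7% and 54.0% in Sup-B15. The larger share came with an almost equal IKZF1 level, beside a lower family sum of 102 ± 2.39 FPKM in Sup-PR and 118 ± 4.12 FPKM in Sup-B15 (SD, n = 3 each). IKZF2 made up 29.1%, 28.8% and 30.1% in Sup-PR, against 42.2%, 41.4% and 40.2% in Sup-B15. IKZF5 made up 6.70%, 6.85% and 7.28% in Sup-PR, against 3.87%, 4.18% and 4.15% in Sup-B15. The lines did not overlap in any of these shares or in the sum. IKZF4 held 1.61% in Sup-PR and 1.65% in Sup-B15, and its difference changed sign without Sup-PR 1 or with CPM in place of FPKM. IKZF3 held 0.0395% in Sup-PR and 0.0721% in Sup-B15, and its difference of -0.0326 percentage points was -0.0173 without Sup-B15 1 and -0.0216 without Sup-PR 2. In two-sided exact permutation tests, p was 0.1 for the shares of IKZF1, IKZF2 and IKZF5 and for the sum (adjusted over the 6 values 0.15), 0.2 for IKZF3 (0.24) and 0.6 for IKZF4 (0.6). As 0.1 is the smallest p that 3 against 3 libraries allow, this design could not reach 0.05, and the shares of 1 library are not independent of each other. The gain in the IKZF5 share, 2.88 percentage points on FPKM, was 1.37 on CPM, which gives longer genes more weight.

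**Figure D3:**
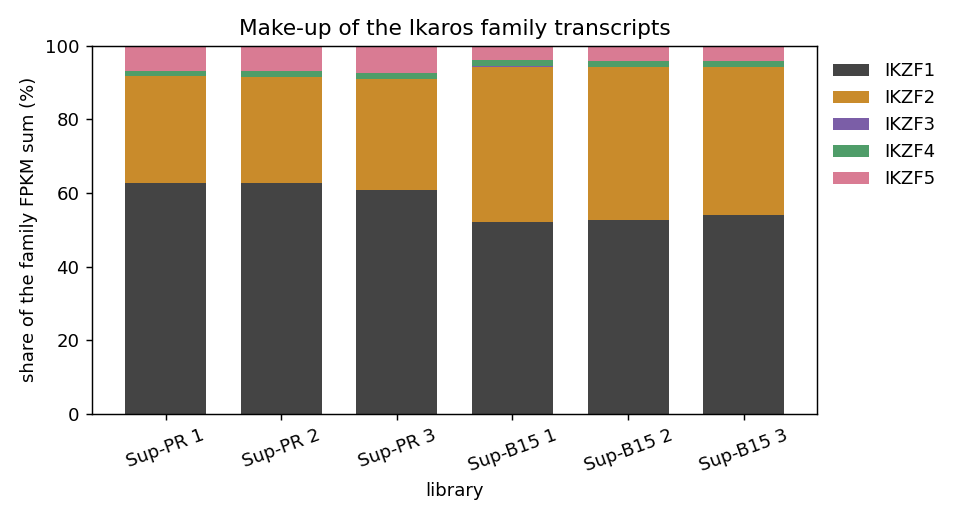
Share of the summed family FPKM (%, vertical axis) taken by each Ikaros family gene in the 3 Sup-PR and 3 Sup-B15 libraries, with bars that add to the whole family. IKZF1 takes 60.9% to 62.7% in Sup-PR and 52.1% to 54.0% in Sup-B15, and IKZF2 takes 28.8% to 30.1% in Sup-PR and 40.2% to 42.2% in Sup-B15.

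The gene-level counts pool all isoforms, and GENCODE 29 annotates 23 transcripts for IKZF1, 14 for IKZF2, 17 for IKZF3, 13 for IKZF4 and 5 for IKZF5. Short isoforms of IKZF1 and IKZF2 that lack DNA-binding fingers are known from leukaemia, and these counts cannot separate them from full-length transcripts. Strand use in counting is not given in the sources used here, so reads of overlapping genes on opposite strands may not be told apart. IKZF5 overlaps PSTK, a kinase of selenocysteine synthesis, which held 662 counts over the Sup-PR libraries and 561 over the Sup-B15 libraries. IKZF1 overlaps the antisense gene AC124014.1, which held 51 counts in Sup-PR and 50 in Sup-B15. IKZF2 overlaps AC093865.1 on its own strand, with 20 counts in Sup-PR and 16 in Sup-B15. IKZF4 overlaps the antisense gene AC034102.8, with 1 count in each line.

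Ikaros proteins act through the nucleosome remodelling and deacetylase (NuRD) complex, and all 13 of its listed subunit genes were tested. Of these, 6 rose, 2 fell and 5 did not pass, and 1 was called higher and 0 lower. The median log2 fold change was 0.06, against -0.01 over all genes tested. As background for this list and those below, 28.0% of all genes tested passed as higher and 27.4% as lower. The shares called were 7.53% higher and 15.4% lower, and no list was tested against them. MTA3, a subunit expressed in B cells that partners with BCL6, averaged 37.0 ± 1.52 CPM in Sup-PR and 21.6 ± 1.24 CPM in Sup-B15 (log2 fold change 0.78, SE 0.07, edgeR adjusted p = 1.21e-06). CHD3, a remodelling ATPase, fell to 450 ± 17.7 CPM in Sup-PR, against 534 ± 20.7 CPM in Sup-B15 (log2 -0.25). RBBP4, a histone-binding subunit, was at 456 CPM in Sup-PR and 437 CPM in Sup-B15 and did not pass. The 2 deacetylases of the complex, named after their values were seen, went in opposite directions: HDAC2 rose (log2 0.38) and HDAC1 fell (log2 -0.37). Of 5 other corepressor genes 0 rose, 1 fell and 4 did not pass, with a median of -0.02. A further corepressor fell when Sup-PR 1 was left out, which made 2 of 5. With all libraries the gene that fell was SIN3A, a scaffold for deacetylases, at 117 ± 1.42 CPM in Sup-PR and 150 ± 1.85 CPM in Sup-B15 (log2 -0.36, edgeR adjusted p = 2.22e-05). CTBP1, the corepressor with most counts, was at 231 CPM in Sup-PR and 216 CPM in Sup-B15 and did not pass.

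Of the 5 genes of the cereblon ubiquitin ligase, 3 rose, 1 fell and 1 did not pass, 0 were called, and the median was 0.25. CRBN, the receptor that thalidomide-type drugs bind, was at 25.0 ± 0.274 CPM in Sup-PR and 26.6 ± 0.976 CPM in Sup-B15, and did not pass (log2 -0.09, edgeR adjusted p = 0.317). DDB1, the adaptor, rose to 382 ± 10.3 CPM in Sup-PR, against 303 ± 4.46 CPM in Sup-B15 (log2 0.34). CUL4A, the scaffold cullin, rose to 180 ± 2.44 CPM in Sup-PR, against 151 ± 2.66 CPM in Sup-B15 (log2 0.25). CUL4B, the alternative cullin, was the member that fell (log2 -0.29) and was named after its value was seen.

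Kinases and phosphatases that act on Ikaros numbered 8, of which 5 rose, 2 fell and 1 did not pass, with 0 called higher, 2 called lower and a median of 0.21. The 2 that were called are tyrosine kinases of B-cell receptor signalling. BTK stood at 16.2 ± 1.04 CPM in Sup-PR and 118 ± 6.79 CPM in Sup-B15 (log2 -2.85, SE 0.07, edgeR adjusted p = 6.02e-12). SYK stood at 181 ± 4.31 CPM in Sup-PR and 287 ± 2.31 CPM in Sup-B15 (log2 -0.67, SE 0.05, edgeR adjusted p = 6.10e-08). In both the lines did not come near overlapping. The genes that rose, named after their values were seen, were the 3 subunits of casein kinase 2 (CSNK2A1, log2 0.41; CSNK2A2, 0.45; CSNK2B, 0.21), which phosphorylates Ikaros, and the protein phosphatase 1 catalytic genes PPP1CA (0.21) and PPP1CC (0.55), of the enzyme that dephosphorylates it. All of these were under the 1.5-fold threshold. CSNK2B passed narrowly (edgeR adjusted p = 0.0395) and no longer passed with DESeq2, under upper-quartile scaling and library totals alone and when any library other than Sup-PR 2 was left out (adjusted p from 0.053 to 0.214 over these settings).

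Genes described as bound or regulated by Ikaros in B-cell precursors or leukaemia numbered 27, and 24 were tested. Of these, 3 rose, 12 fell and 9 did not pass, with 3 called higher, 5 called lower and a median of -0.23. As Ikaros activates some of these genes and represses others, the directions were not read together. Over all genes tested, 28.0% passed as higher and 27.4% as lower, and 7.53% were called higher and 15.4% lower. Whether this list differs from that background was not tested. MYC, the growth-promoting transcription factor, averaged 261 ± 7.27 CPM in Sup-PR and 113 ± 3.18 CPM in Sup-B15 (log2 1.21, SE 0.05, edgeR adjusted p = 3.22e-10). EMP1, a membrane protein gene that has been linked to prednisolone resistance in cALL, averaged 22.0 ± 4.41 CPM in Sup-PR and 10.04 ± 1.32 CPM in Sup-B15 (log2 1.13). BCL6, a transcriptional repressor of B-cell precursors and germinal centres, averaged 64.8 ± 9.01 CPM in Sup-PR and 36.6 ± 5.21 CPM in Sup-B15 (log2 0.82). These were the 3 genes of the list that rose.

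There were 5 genes of the list called lower. BLNK, an adaptor of the pre-B-cell receptor, averaged 123 ± 1.81 CPM in Sup-PR and 223 ± 12.9 CPM in Sup-B15 (log2 -0.86). PIK3CD, a catalytic PI3-kinase subunit of leucocytes, averaged 292 ± 14.4 CPM in Sup-PR and 495 ± 9.51 CPM in Sup-B15 (log2 -0.76). RAG1, part of the recombinase that assembles antigen receptor genes, averaged 442 ± 14.3 CPM in Sup-PR and 670 ± 5.10 CPM in Sup-B15 (log2 -0.60). TXNIP, a glucocorticoid-inducible regulator of glucose uptake, averaged 31.5 ± 1.18 CPM in Sup-PR and 58.1 ± 0.985 CPM in Sup-B15 (log2 -0.88). The fifth was CRLF2, a cytokine receptor gene, named after its counts were seen, with 0, 0 and 2 counts in the Sup-PR libraries and 44, 59 and 48 in the Sup-B15 libraries. NR3C1, the glucocorticoid receptor gene, was at 281 ± 2.34 CPM in Sup-PR and 301 ± 6.44 CPM in Sup-B15 and did not pass (log2 -0.10, edgeR adjusted p = 0.0843). NR3C1 passed as lower with upper-quartile scaling (0.0096), with library totals alone (0.0066) and without Sup-B15 3 (0.026). EBF1 and DNTT belong both to this list and to the B-cell precursor markers, which were lower in Sup-PR as given above.

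**Figure D4:**
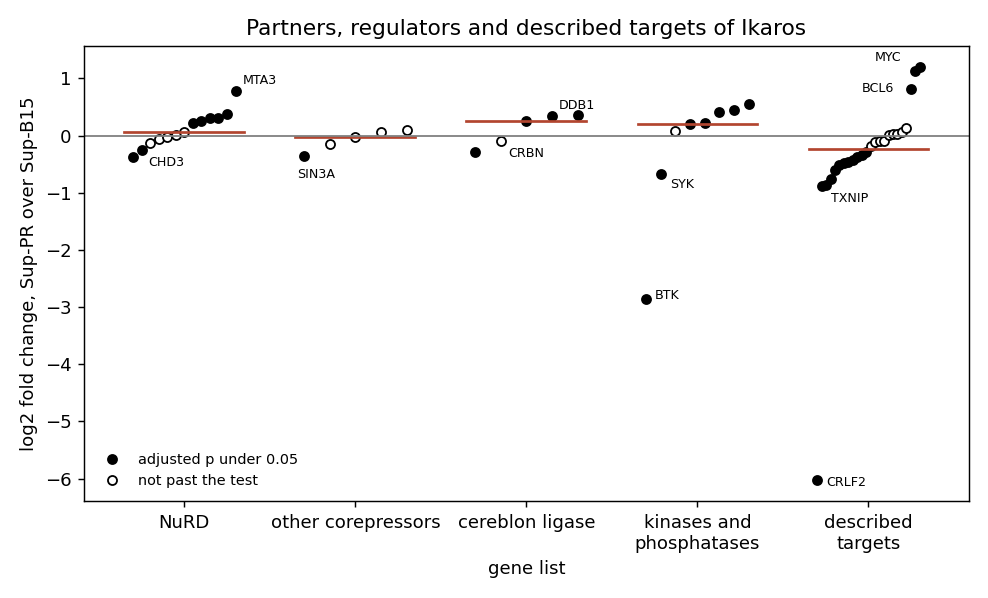
Log2 fold change of Sup-PR over Sup-B15 (vertical axis) for each tested gene of 5 lists, ordered by value within a list, with filled points for genes past an adjusted p of 0.05, open points for the others and a red bar at each median. BTK stands lowest among the kinases at -2.85, MYC highest among the described targets at 1.21, and the medians lie between -0.23 and 0.25.

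Genes within 500 kb of a member were compared with it to see whether the chromosome around the gene moved too. Around IKZF1, 5 genes were tested and 0 passed, among them SPATA48 (log2 0.09) and FIGNL1 (log2 0.06), the nearest tested protein-coding genes on its sides. Around IKZF2, 1 gene was tested, AC079610.2, a long non-coding RNA gene 543 bases away, and it did not pass (log2 -0.02). Whether it differed from IKZF2 in its change was not tested. Around IKZF5, 9 genes were tested, of which 3 rose, 2 fell and 4 did not pass. Its nearest tested protein-coding neighbours were ACADSB, an acyl-CoA dehydrogenase gene that starts 162 bases away and rose (log2 0.38, SE 0.07, edgeR adjusted p = 3.52e-04), and PSTK (log2 0.20), which did not pass.

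The denser windows of the remaining members were mixed. Around IKZF3, 24 genes were tested, of which 5 rose, 8 fell and 11 did not pass. Its nearest tested protein-coding neighbours were MIEN1 (log2 0.03), which did not pass, and GSDMB, a gasdermin gene, which fell to 8.79 ± 3.21 CPM in Sup-PR, against 17.6 ± 3.13 CPM in Sup-B15 (log2 -1.02). Around IKZF4, 43 genes were tested, of which 7 rose, 17 fell and 19 did not pass. Its nearest tested protein-coding neighbours were SUOX, the sulphite oxidase gene, which fell (log2 -0.48), and RPS26, a ribosomal protein gene, which rose (log2 0.25). In all, 82 genes were tested in the 5 windows, 4 called higher and 14 called lower, with a median log2 fold change of -0.09. Over all genes tested, 7.53% were called higher and 15.4% lower, and the median was -0.01. At the adjusted p alone, 28.0% of all genes passed as higher and 27.4% as lower. Whether the windows differ from that background was not tested.

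**Figure D5:**
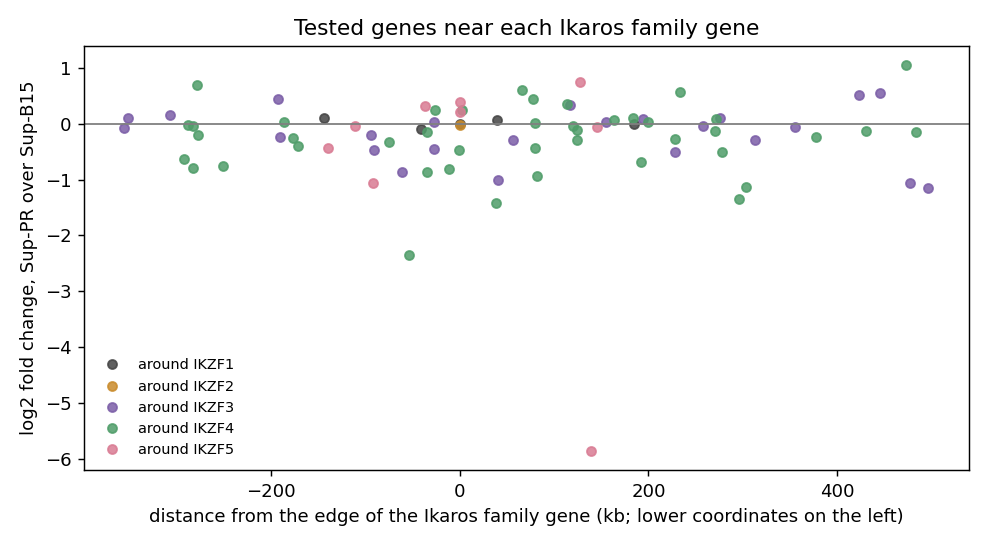
Log2 fold change of Sup-PR over Sup-B15 (vertical axis) for each tested gene within 500 kb of an Ikaros family gene, by distance from the edge of that gene (horizontal axis, kb, lower coordinates to the left). The 5 genes around IKZF1 and the 1 gene near IKZF2 lie close to 0, and those around IKZF3, IKZF4 and IKZF5 lie on both sides of it.

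The sequences upstream of IKZF2 and IKZF5, the members with the clearest changes in opposite directions, are shown as 250 bases before the start in the RefSeq record nearest to the annotated gene start (GRCh38.p14). They lie at chr2:213152457-213152706 for IKZF2 and chr10:123008796-123009045 for IKZF5, both on the minus strand, and are written 5′ to 3′ on that strand with matches to GGGAA, the core letters of the Ikaros recognition motif, in capitals.
IKZF2: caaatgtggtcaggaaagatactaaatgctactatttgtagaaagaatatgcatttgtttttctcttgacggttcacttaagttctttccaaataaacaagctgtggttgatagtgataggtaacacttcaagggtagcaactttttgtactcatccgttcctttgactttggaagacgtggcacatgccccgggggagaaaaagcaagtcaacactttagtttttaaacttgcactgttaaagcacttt
IKZF5: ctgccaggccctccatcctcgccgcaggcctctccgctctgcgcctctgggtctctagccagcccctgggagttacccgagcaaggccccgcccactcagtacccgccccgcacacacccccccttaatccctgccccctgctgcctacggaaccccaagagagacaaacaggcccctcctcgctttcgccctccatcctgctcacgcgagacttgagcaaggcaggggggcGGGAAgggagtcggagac
The search covered both strands. IKZF2 held 0 matches and IKZF5 held 1, while the nearest record of IKZF1 held 2 and that of IKZF4 held 1. Of 35116 RefSeq promoters of this length, 59% held at least 1 match and the median was 1, so a match here is common. RefSeq records were found for 4 of the 5 members, all but IKZF3.

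The genes whose level followed each member most closely over the 6 libraries were found by Pearson's r of log2 CPM, as a description without a test. Since the 6 libraries are 2 lines of 3, a gene that differs between the lines in the same direction as a member tends to follow that member. For IKZF2 they were OPALIN (r = 0.9999), AC108134.3 and ARHGAP21, all lower in Sup-PR, and 2741 genes (18.4%) had an r over 0.9. For IKZF5 they were PPIG, GCSH and POLR1C, all higher in Sup-PR, and 2749 genes (18.5%) had an r over 0.9. For IKZF4 they were AC010326.4, NOSTRIN and LINC00476, with 1335 genes (8.98%) over 0.9. IKZF1 and IKZF3, which did not pass between the lines, had fewer such genes, 117 (0.787%) and 200 (1.35%). Those most like IKZF1 were TBC1D10C (r = 0.993), PAM16 and EME1, and those most like IKZF3 were SHPRH (r = 0.993), AC091982.3 and Z95114.3.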

How the data were processed

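RNA of 3 Sup-PR and 3 Sup-B15 libraries was made into NEBNext Ultra libraries for paired-end sequencing. Samples were grouped by the line named in their labels, and 0 columns of per-sample values were left unmapped. Per the submitters' processing notes, HISAT2, CASAVA and DESeq2 were used with the build GRCh38.p12. Tool versions, the counting program, the annotation and strand use were not given in the sources used here. The authors deposited raw counts per gene, which were tested as they stand, and FPKM, which divide the counts by gene length and library depth and were used for levels between genes. They also deposited a size-factor-scaled signal per library, which was not used, and columns of their own log2 fold change, p-value and adjusted p-value for the same comparison, which were not used either. Gene starts and ends were the same as in GENCODE 29 for 99.5% of genes.

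Genes were filtered with filterByExpr, scaled by TMM and tested with edgeR 4.0.16 (quasi-likelihood, robust estimation, R 4.3.3) over all 14869 genes, with Benjamini-Hochberg adjustment. A gene passed at an adjusted p under 0.05 and was called with a fold change over 1.5 as well. The common biological coefficient of variation was 0.0646. CPM were scaled by TMM. The fit was tested on simulated counts. Alternatives used DESeq2 1.42.0, limma 3.58.1 (voom on counts, and log2(FPKM + 1) or log2(FPKM + 0.1) where 3 libraries reached an FPKM of 1), other scalings and filters, and each library left out. Shares used exact permutation tests (SciPy 1.17.1, Python 3.11.15). The precision depends on the number of counts and on the spread between libraries, and counting error does not cover other sources of error.

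The members and 5 gene lists were chosen with earlier results of these data known, and the lists were written from general knowledge. Genes named are the members, up to 4 called genes per direction and list by adjusted p (or the 2 with most counts where under 2 were called), CRBN, NR3C1 and MYC, the nearest tested protein-coding neighbours and the 3 genes most like each member. Others are marked as named after their values were seen, or are markers, overlapping genes or the tested gene beside IKZF2. A further marker gene of the B-cell precursor list is not reported here.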

Additional observations from a re-analysis of the deposited data

How the results depend on the processing

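The decrease of IKZF2 passed in all 13 other settings (log2 fold change -0.78 to -0.68) and with each library left out (-0.77 to -0.68). The increase of IKZF5 passed in 12 of 13 settings and with each library left out (0.51 to 0.58), and did not pass when tested against a fold change of 1.5 (0.55). IKZF1 passed in 0 of 13 settings and 0 of 6 with a library left out, and its sign turned with upper-quartile scaling (-0.0432), library totals (-0.0542), at least 10 counts in every library (-0.0119), protein-coding genes only (-0.0231) and libraries left out (-0.0176 to 0.0239). IKZF3 passed with no filter (-1.09) and in 2 of 6 cases with a library left out (-1.57 to -0.72), and gave no value with at least 10 counts in every library or in either FPKM setting. IKZF4 no longer passed with DESeq2 (-0.25), no filter (-0.25), log2(FPKM + 1) (-0.16), log2(FPKM + 0.1) (-0.23), the test against a fold change of 1.5 (-0.25) and 5 of 6 libraries left out (-0.28 to -0.21). The difference in the IKZF4 share turned with CPM (0.00531) and over the libraries left out (-0.0896 to 0.00559). Genes called higher numbered 1120, against 631 with log2(FPKM + 1) and 484 in the test against a fold change of 1.5, and genes called lower 2293, against 943, 1290 with log2(FPKM + 0.1) and 1318. Both FPKM settings tested 11901 genes. The setting with protein-coding genes only tested 11860, of which 757 were called higher and 1786 lower. The cause of these differences was not tested. Low counts limited IKZF3. The gene lists and the other named genes were checked under DESeq2, upper-quartile scaling, library totals and each library left out, chosen after seeing the data. The count of other corepressors that fell ranged from 1 to 2 over the libraries left out, and every other list count in these settings stayed within 1.5 times its value.

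The replicate numbers were tried as a block, though they did not pair the libraries: deviations of same-numbered libraries correlated at 0.476, -0.162 and 0.504, and not every library was closest to its own number. With the replicate block, IKZF3 passed (-1.11, adjusted p = 0.0309), no other member changed its side of the threshold, and genes called were 1134 higher and 2376 lower.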
